A study of Mus musculus with 20 samples.

Results

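The mitochondrial genome contributed 7 loci to the catalogue of long intergenic non-coding RNAs (lincRNAs) deposited with the study, out of 29286 loci in all. They are every locus whose exons the catalogue places on the mitochondrial chromosome, NONMMUG044353 to NONMMUG044359, and they hold 14 transcript models, each of 1 exon. RNA attached to freshly copied DNA was sequenced in 2 kinds of mouse cell, both labelled wild-type: embryonic stem cells, and NIH3T3, a fibroblast line that grows without limit in culture. Cells were given EdU, a thymidine analogue, for 10 min and fixed with 1% formaldehyde, EdU was joined to biotin with 10 µM biotin azide, and the labelled DNA was pulled down on streptavidin. For NIH3T3 only, a block of 15 h in 2 mM thymidine and 2.5 h in fresh medium came first. Each cell type had 5 groups of 2 libraries: no_click (DMSO in place of biotin azide, no hydroxyurea), click_normal (biotin azide, no hydroxyurea), and click_HU, click_chase and click_protease, which all carry the hydroxyurea label (4 h at 4 mM). Hydroxyurea starves cells of DNA building blocks, so that forks stop moving.

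The file analysed here is an annotation, named as mouse NONCODE lincRNA, with 0 values for any of the 20 libraries. The level of mitochondrial RNA in the libraries, its change between groups and the read depth are therefore not analysed here. What follows describes what the 14 models are, with no test, since models of 1 annotation are not replicates.

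Mammalian mitochondria carry a small circular genome with almost no space between genes. Both strands are copied into long precursor RNAs that run over many genes. Transfer RNAs (tRNAs) sit between most of the ribosomal RNA (rRNA) and messenger RNA genes, and cutting the tRNAs out releases the other RNAs, so the ends of many mature RNAs lie at the edge of a tRNA. One strand codes for both rRNAs and nearly all proteins. The other codes for mt-Nd6 and 8 of the 22 tRNAs, and most of its precursor is antisense to genes. The non-coding control region holds the transcription promoters and the start of heavy-strand replication.

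The deposited positions are mm9, and the gene positions used here come from GENCODE M21 on GRCm38. The mitochondrial numbering was taken as shared because model ends met GENCODE gene edges to the base, including both ends of 2 rRNA genes, as given below. GENCODE lists 37 mitochondrial genes, namely 2 rRNA, 13 protein-coding and 22 tRNA genes, of which 28 are coded on the plus and 9 on the minus strand. Positions are counted from 1 at the first base of mt-Tf, the tRNA for phenylalanine. Sequences below were read from GENCODE's GRCm38 transcripts of these genes, 5′ to 3′ on the strand of the model. No sequence of the mm9 build was used.

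The models that overlap the rRNA genes differ in where they stop, so the sequence around their 3′ ends is shown first. Capitals mark the last 20 bases of the model and lower case the 20 bases that follow.
NONMMUT071574, whole mt-Rnr1: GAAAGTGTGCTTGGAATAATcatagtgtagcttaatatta
NONMMUT071577, whole mt-Rnr2: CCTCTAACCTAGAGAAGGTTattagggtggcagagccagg
NONMMUT071573, fragment of mt-Rnr1: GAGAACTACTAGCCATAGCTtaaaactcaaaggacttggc
NONMMUT071575, fragment of mt-Rnr1: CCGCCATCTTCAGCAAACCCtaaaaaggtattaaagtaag
NONMMUT071579, fragment of mt-Rnr2: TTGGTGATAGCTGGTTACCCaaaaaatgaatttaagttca
NONMMUT071580, fragment of mt-Rnr2: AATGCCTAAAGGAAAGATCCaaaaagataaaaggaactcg
NONMMUT071581, fragment of mt-Rnr2: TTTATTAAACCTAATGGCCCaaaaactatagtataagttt
NONMMUT071578, read-through into mt-Nd1: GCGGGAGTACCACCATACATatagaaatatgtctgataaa
The whole-gene models stop where a tRNA begins. The fragments stop inside the rRNA, just before a stretch rich in A.

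Starts of 4 models outside the fragments are shown because they lie at or near the edge of a gene. Capitals mark the first 20 bases of the model and lower case the 20 bases before it.
NONMMUT071577, after mt-Tv: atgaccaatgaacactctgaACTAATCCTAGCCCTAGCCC
NONMMUT071600, after mt-Te on the minus strand: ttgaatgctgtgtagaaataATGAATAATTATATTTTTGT
NONMMUT071601, after mt-Nd5: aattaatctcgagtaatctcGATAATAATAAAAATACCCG
NONMMUT071605, after mt-Tt: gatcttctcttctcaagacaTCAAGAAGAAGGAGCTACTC
In the second of these the capitals open with ATG, the first codon of mt-Nd6.

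The models were sorted by how their bases lie against rRNA and coding genes. A model was antisense where it shared more bases with such genes on the other strand than on its own, read-through where it shared 30 or more bases with several of them on its own strand, and whole gene where it covered at least 90% of 1. By this rule 2 models were whole genes, 5 were fragments, 1 was a read-through, 3 were antisense and 3 lay outside rRNA and coding genes. The plus strand held 10 models in 4 loci and the minus strand 4 models in 3 loci. Although the catalogue is labelled as intergenic, 12 of the 14 models shared bases with an annotated mitochondrial gene on one strand or the other, 9 of them with a gene of their own strand. The other 2, both in the control region, shared none.

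**Figure D1:**
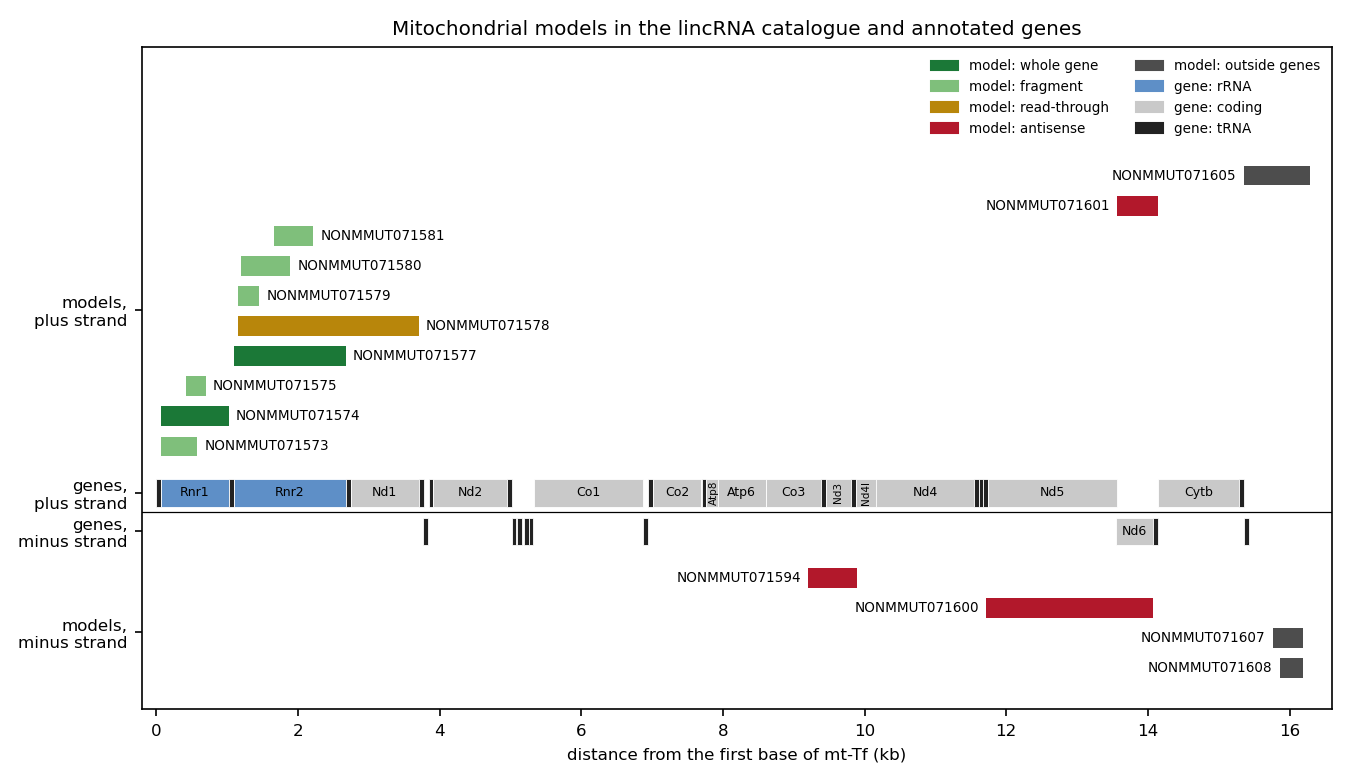
Position of the 14 catalogued mitochondrial models against the 37 annotated genes, as distance from the first base of mt-Tf (kb, horizontal axis), with plus-strand models and genes above the line and minus-strand ones below it. Bars are models coloured by class, and rRNA, coding and tRNA genes in blue, grey and black. The rRNA genes at the left carry 8 models, and mt-Nd2 to mt-Atp6 carry none.

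The rRNA loci were the most model-rich. Of the 14 models, 8 contained rRNA sequence and 7 lay wholly inside an rRNA gene. NONMMUG044353 covered mt-Rnr1, the RNA of the small mitochondrial ribosomal subunit, with 3 models. NONMMUG044354 covered mt-Rnr2, the RNA of the large subunit, with 5. Both rRNA genes were covered over 100% of their bases on their own strand. Between the loci lay 69 bases, which are mt-Tv, the tRNA for valine.

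At mt-Rnr1, NONMMUT071574 ran from 70 to 1024 on the plus strand (955 nt). These are the first and last base of the gene in GENCODE, so this lincRNA entry has the extent of the complete small-subunit rRNA. NONMMUT071573 began at the same first base, 70, and stopped at 576, which left it with 507 nt or 53.1% of the gene. NONMMUT071575 lay inside the gene from 418 to 703 (286 nt, 29.9% of the gene, its bases 349 to 634). It was the shortest of the 14 models.

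The 2 fragments of mt-Rnr1 overlapped by 159 bases, so neither is contained in the other, and both lie within the whole-gene model. NONMMUT071575 is printed in full (chrM:418-703) to show how a catalogued lincRNA reads when it is an internal piece of rRNA, with the bases it shares with NONMMUT071573 in capitals.
NONMMUT071575: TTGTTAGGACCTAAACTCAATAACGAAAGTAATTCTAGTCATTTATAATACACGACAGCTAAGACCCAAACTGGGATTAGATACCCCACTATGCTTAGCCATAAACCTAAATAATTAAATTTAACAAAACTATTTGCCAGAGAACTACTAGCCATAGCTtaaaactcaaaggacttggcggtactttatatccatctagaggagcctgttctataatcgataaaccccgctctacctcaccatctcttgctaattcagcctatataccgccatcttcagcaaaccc

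At mt-Rnr2, NONMMUT071577 ran from 1094 to 2675 (1582 nt), again the first and last base of the gene. The 3 fragments were NONMMUT071579 (1149 to 1453, 305 nt, 19.3% of the gene), NONMMUT071580 (1198 to 1893, 696 nt, 44.0%) and NONMMUT071581 (1662 to 2219, 558 nt, 35.3%). They followed each other along the gene with overlaps of 256 bases between the first pair and 232 bases between the second. None reached the last 456 bases of the gene.

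The read-through model, NONMMUT071578, was the longest of the 14. It ran from 1149 to 3703 on the plus strand (2555 nt) and ran across 3 neighbouring genes. It held 1527 bases of mt-Rnr2 (96.5% of the gene), all 75 bases of mt-Tl1, a tRNA for leucine, and 953 bases of mt-Nd1 (99.6%), which encodes a subunit of respiratory complex I. With the tRNA uncut in its middle, it spans RNAs that processing separates. It shares its first base, 1149, with the fragment NONMMUT071579, 55 bases inside mt-Rnr2. Its last base lies 2 bases short of mt-Ti, the tRNA for isoleucine.

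**Figure D2:**
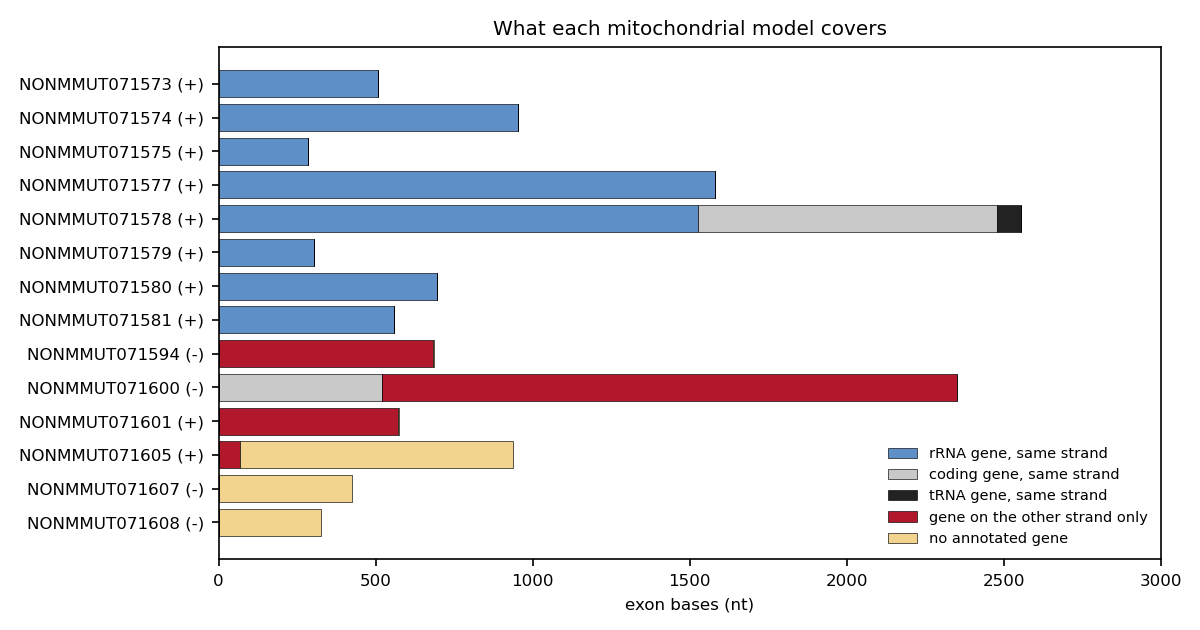
Exon bases of each of the 14 models (nt, horizontal axis) by what they cover, namely rRNA, coding or tRNA genes of the same strand, genes of the other strand only, or no annotated gene. The bars of 7 models are rRNA throughout, NONMMUT071578 adds mt-Nd1 and a tRNA, and NONMMUT071600 combines 519 bases of mt-Nd6 with 1832 bases antisense to other genes.

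The 3 antisense models lay over complex I and complex IV genes. NONMMUT071594 (locus NONMMUG044355, 9203 to 9888, minus strand, 686 nt) crossed 5 plus-strand genes. It was antisense to all 348 bases of mt-Nd3, a complex I subunit, to the last 188 bases of mt-Co3, a cytochrome c oxidase subunit, to the complete tRNAs mt-Tg and mt-Tr of 68 bases each, and to the first 12 bases of mt-Nd4l. No base of it belonged to a gene of its own strand. Neither end met a gene edge of either strand, the closest being 12 bases from the start of mt-Nd4l.

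NONMMUT071600 (locus NONMMUG044356, 11720 to 14070, minus strand, 2351 nt) is antisense by its larger part but also contains a complete gene. Its first 519 bases are the whole of mt-Nd6, the only protein-coding gene of the minus strand and a subunit of complex I. The model then continues beyond mt-Nd6 and is antisense to all 1824 bases of mt-Nd5, another complex I subunit, and to the last 22 bases of mt-Tl2, the second tRNA for leucine. Because mt-Nd5 and mt-Nd6 overlap at their ends, the bases antisense to a gene and free of mt-Nd6 number 1832, or 77.9% of the model. When a gene on the model's own strand was given precedence, an alternative added after the data were seen, NONMMUT071600 counted as a whole gene, and the classes became 3 whole-gene and 2 antisense models.

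NONMMUT071601 (locus NONMMUG044357, 13570 to 14143, plus strand, 574 nt) faces the start of that model. It was antisense to the first 501 of the 519 bases of mt-Nd6 (96.5%) and to the whole of mt-Te, the tRNA for glutamate (69 bases). It fills the plus-strand interval between mt-Nd5 and mt-Cytb: it leaves 4 bases free after mt-Nd5 and 1 base free before mt-Cytb, the cytochrome b gene. NONMMUT071600 and NONMMUT071601 shared 501 bases on opposite strands, 87.3% of the shorter model. Without strand, reads in these bases cannot be assigned to either model, and the sources used here do not say whether the study's counting used strand.

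The control region carried models on both strands. NONMMUT071605 (locus NONMMUG044358, 15356 to 16294, plus strand, 939 nt) began at the base that follows mt-Tt, the tRNA for threonine. Its first 67 bases are antisense to the complete mt-Tp, the tRNA for proline, and the other 872 lie beyond the last annotated gene, which ends at 15422. On the minus strand, NONMMUT071607 (15763 to 16188, 426 nt) and NONMMUT071608 (15863 to 16188, 326 nt), both of locus NONMMUG044359, started at the same base, 16188, and differed by 100 bases at the 3′ end. Both lie inside the interval of NONMMUT071605 on the other strand. Sequence of the control region was not used here.

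The tRNA and the opening of the model that faces it are printed together to show what antisense means at this locus (chrM:15356-15422). Each is written 5′ to 3′ on its own strand, and no part is set in capitals.
mt-Tp, minus strand: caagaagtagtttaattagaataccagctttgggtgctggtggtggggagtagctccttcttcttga
NONMMUT071605 over mt-Tp, plus strand: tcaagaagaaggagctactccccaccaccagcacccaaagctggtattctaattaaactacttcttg
The second line is the reverse complement of the first.

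Gene by gene, 14 of the 37 mitochondrial genes shared at least 1 base with a catalogued model and 23 shared none. On the gene's own strand the models covered 5 genes, each over more than 90% of its length: mt-Rnr1, mt-Rnr2, mt-Tl1, mt-Nd1 and mt-Nd6. On the opposite strand they covered parts of 10 genes, 7 of them over more than 90%. By bases, same-strand models covered 100% of rRNA gene sequence, 12.9% of coding gene sequence and 4.997% of tRNA gene sequence. For models on the strand opposite to the gene, NONMMUT071605 included, the shares were 0% of rRNA, 25.2% of coding and 19.6% of tRNA gene sequence. The rRNAs were thus covered in the sense direction only, and the coding genes over more bases on the other strand. Much of the coding cover came from 1 model, NONMMUT071600. It gave 1824 of the 2873 bases on the other strand, all in mt-Nd5, and 519 of the 1472 bases on the same strand.

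Of the 13 coding genes, 7 had no model on either strand. They are mt-Nd2 and mt-Nd4 of complex I, mt-Co1 and mt-Co2 of cytochrome c oxidase, mt-Atp8 and mt-Atp6 of ATP synthase, and mt-Cytb of complex III. The longest stretch without any model was the 5499 bases between NONMMUG044354 and NONMMUG044355. Of the 22 tRNA genes, only mt-Tl1 lay in a same-strand model, 5 had a model on the other strand and 16 had none.

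**Figure D3:**
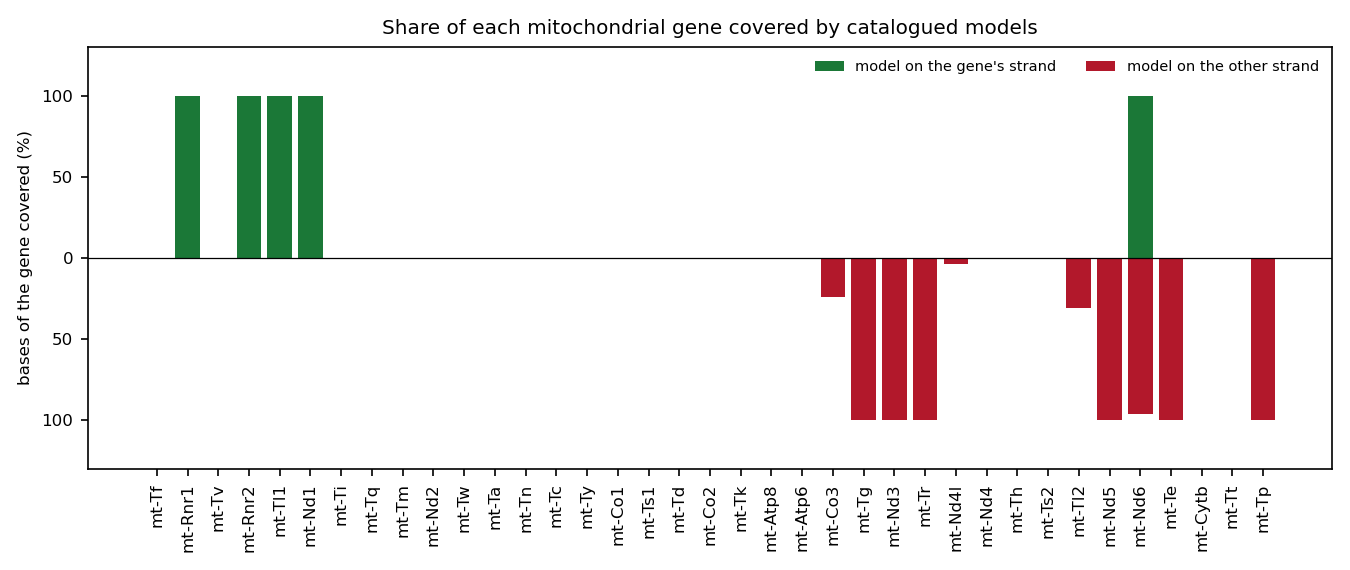
Share of each of the 37 mitochondrial genes, in genome order (horizontal axis), covered by models on its own strand (green, upward, %) or on the other strand (red, downward, %). The rRNA genes, mt-Tl1, mt-Nd1 and mt-Nd6 rise to or near 100%, and 9 further genes have cover on the other strand only.

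In all, models covered 5078 bases of the plus strand and 3463 of the minus strand. Together they covered 7614 of the bases from 1 to 16294, the last base of any model, which is 46.7%, and 927 bases were covered on both strands. The control region beyond the last gene took 872 of the plus-strand bases and 426 of the minus-strand bases.

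Ends of models often met the edges of annotated genes. Of the 28 ends, 7 fell exactly on a gene edge of the same strand and 10 lay within 5 bases of one (35.7%), whereas 2.54% of plus-strand and 1.06% of minus-strand positions up to the last gene lie that close. The exact ends were the shared start of NONMMUT071573 and NONMMUT071574, the end of NONMMUT071574, both ends of NONMMUT071577, and the starts of NONMMUT071600 and NONMMUT071605. Those within 5 bases were both ends of NONMMUT071601 and the 3′ end of NONMMUT071578. Widening the allowance from 5 to 50 bases added no end. Of the other 18 ends, the closest to an edge on their strand lay just past that limit. These were the starts of NONMMUT071578 and NONMMUT071579, each at 55 bases. The 10 near an edge were 6 starts and 4 3′ ends. Exact matches among them were also the ground for taking the numbering as shared, so they cannot test it. The background shares leave out the control region, where some of the 28 ends lie.

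**Figure D4:**
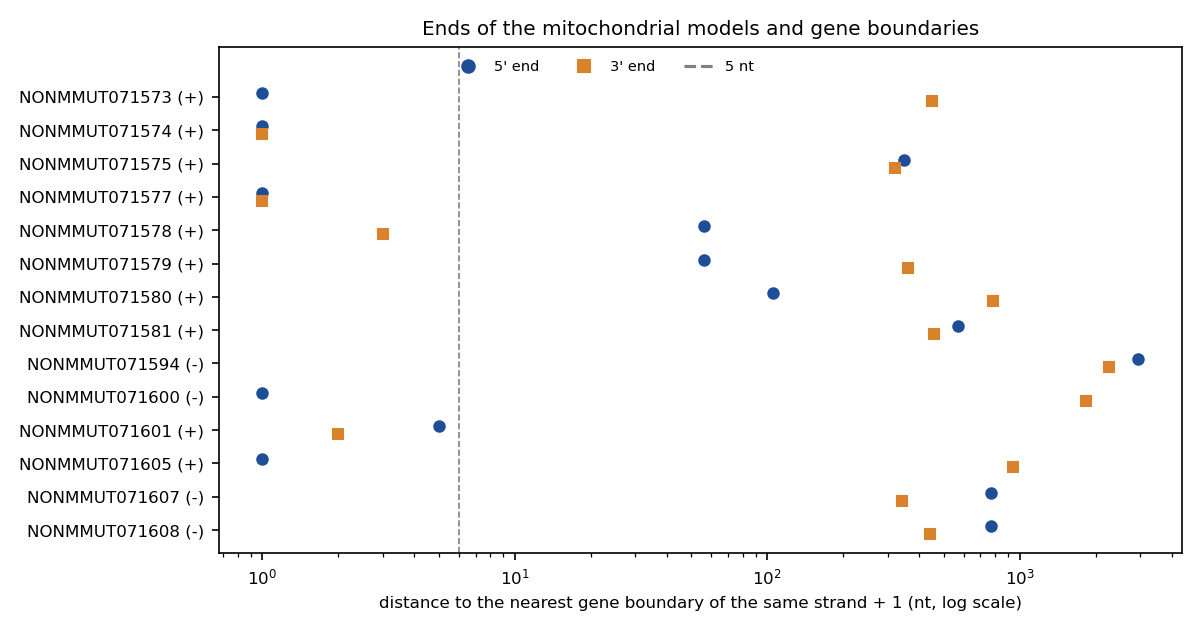
Distance from the 5′ end (blue circles) and the 3′ end (orange squares) of each model to the nearest gene edge of its own strand, plus 1 (nt, log scale), with a dashed line at 5 nt. The 10 ends left of the line belong to 7 models, and the fragments other than NONMMUT071573 have neither end there.

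The rRNA fragments shared a feature at their 3′ ends that the whole-gene models lacked. The 10 bases that follow the 3′ end held 6 A for NONMMUT071573, 6 for NONMMUT071575, 8 for NONMMUT071579, 8 for NONMMUT071580 and 7 for NONMMUT071581. All 5 fragments thus had at least 6 A there. After the whole-gene models the numbers were 3 for NONMMUT071574 and 2 for NONMMUT071577, and for the antisense models they were 5 for NONMMUT071594 and 2 for NONMMUT071600.

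For scale, 9.37% of all plus-strand windows of 10 bases over the annotated genes held 6 or more A. So did 15.7% of the windows that follow each base of the rRNA genes, which are richer in A. For minus-strand windows, the scale for NONMMUT071594 and NONMMUT071600, the share was 4.77%. The read-through model also had 6 A after its end. Of the 10 models with sequence after their 3′ end, 6 therefore ended before such a window. A stricter count, 6 A in a row within 20 bases, was met by 1 model, NONMMUT071579. Whether priming of cDNA at these A-rich stretches set the fragments' ends was not tested.

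**Figure D5:**
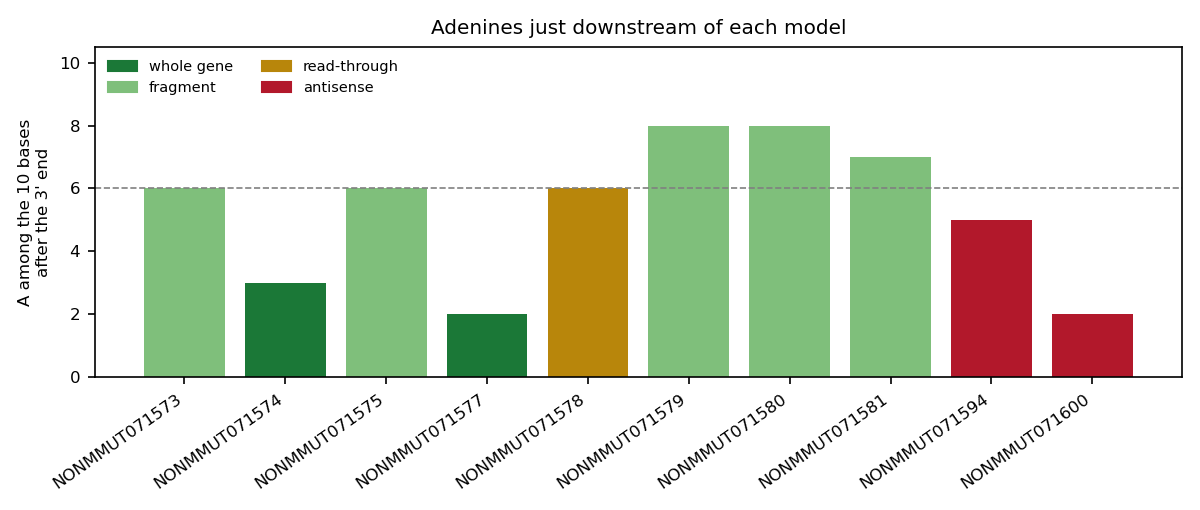
Number of A among the 10 genome bases after the 3′ end (vertical axis) for the 10 models whose following sequence was used, coloured by class, with a dashed line at 6. The 5 fragments stand at 6 to 8, the read-through model at 6, the whole-gene models at 2 and 3, and the antisense models at 2 and 5.

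The hexamers AATAAA and ATTAAA, the usual polyadenylation signals of nuclear genes, were searched in the last 50 bases of the models on their own strand. Of 10 models with the sequence, 3 held one: AATAAA in NONMMUT071577 and ATTAAA in NONMMUT071573 and NONMMUT071581. Among all windows of 50 bases over the annotated genes, 13.5% of those of the plus and 8.76% of those of the minus strand held either hexamer. All 3 models with a hexamer lie within rRNA genes, for which no separate share of such windows was computed. A match here is only a match of letters.

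Base composition mostly followed the strand: 8 of the 9 plus-strand models with sequence held more C than G, NONMMUT071579 being the exception, and both such minus-strand models held more G than C. The plus strand of the annotated genes is poor in G (12.4%) and the minus strand poor in C (12.4%). Plus-strand rRNA models held 12.9 to 18.4% G and 16.7 to 25.5% C. The minus-strand model NONMMUT071600 held 27.3% G and 9.15% C, and the plus-strand model that faces its start, NONMMUT071601, held 6.49% G and 27.7% C, the lowest G share of the 11 models with sequence. G and C together varied little, from 33.3 to 38.5%, beside 36.8% over all annotated genes.

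Although listed as non-coding, 2 models carry coding sequence in the sense direction. NONMMUT071600 holds all 173 codons of mt-Nd6, from ATG to the stop codon TAA. NONMMUT071578 holds 317 of the 319 codons of mt-Nd1, from its GTG start. Mitochondria read TGA as tryptophan, whereas the standard code reads it as stop. With the mitochondrial code neither frame had a stop before its end. With the standard code the mt-Nd1 frame had 8 stops, all TGA, and its longest open stretch fell from 317 to 104 codons, while the mt-Nd6 frame had 3 stops, again all TGA, and its longest open stretch fell from 172 to 85 codons.

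Over any frame of a model's own strand, the longest open stretch in the mitochondrial code was 331 codons in NONMMUT071578 and 172 in NONMMUT071600. The other 9 models with sequence had between 28 and 55 codons. With the standard code the values for the first 2 were 123 and 148, and those of the other 9 ran from 39 to 101 codons, so the gap between them was much smaller. The 101 codons were in NONMMUT071594, which had 32 in the mitochondrial code. The sources used here do not say which code was applied when the catalogue was made.

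Pieces of mitochondrial DNA are also found as pseudogenes on nuclear chromosomes, and reads from such copies cannot be told from the mitochondrial RNA where they are nearly identical. Of the 11 models with sequence, 3 matched GENCODE transcripts of nuclear genes over at least 200 bases at 90% identity or more. NONMMUT071594 matched Gm28438, an unprocessed pseudogene on chromosome 1, over 345 bases at 99.7% identity, on the strand opposite to that pseudogene. NONMMUT071600 matched the processed pseudogenes Gm4076 on chromosome 13 (954 bases, 95.2%), Gm11407 on chromosome 4 (1058 bases, 92.3%) and Gm11408 on chromosome 4 (519 bases, 93.6%). Only the last, over the mt-Nd6 part, was in the same sense.

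NONMMUT071601 matched Gm11408 as well, over 500 bases at 93.8% identity in the opposite sense. None of the 8 models over the rRNA genes had such a match among nuclear transcripts. Copies outside annotated transcripts were not searched.

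Beside the rest of the catalogue the mitochondrial models were short, unspliced and densely packed. Their median length was 630 nt (286 to 2555 nt) against 1173 nt for the other 40842 transcripts and 1742.5 nt for the 17668 with 1 exon. Of the 14, 11 were shorter than the first of these medians and 12 shorter than the second. With only the longest transcript of each locus the gap was smaller, with medians of 939 nt for the mitochondrial loci and 1332 nt for the rest. All 14 had 1 exon, as did 43.3% of the other transcripts. Several models per locus were listed for 3 of 7 mitochondrial loci and for 16.2% of the other 29279 loci.

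Opposite-strand exon overlap involved 4 of the 7 mitochondrial loci, namely NONMMUG044356 with NONMMUG044357 and NONMMUG044358 with NONMMUG044359, compared with 5.48% of the other loci. Loci lay at 0.430 per kb of the mitochondrial genome, counted from base 1 to 16294. On the 21 nuclear chromosomes they lay at 0.00301 to 0.0150 per kb of the span from the first to the last catalogued base. Exons covered 46.7% of mitochondrial bases on either strand, and 0.663 to 2.39% of the span of a nuclear chromosome. These are descriptions of 1 annotation, without a test.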

How the data were processed

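The 20 RNA libraries were grouped by title. Whether the pair in a group came from separate cultures is not stated in the labels. The authors deposited an exon table in GTF format. Its values are other than expression: start and end positions in bases, with an empty score field and Cufflinks as source, per the file's own fields. The submitters' processing notes name mm9 as build, and TopHat2 2.0.8 and Cufflinks 2.1.1 as tools. The name of the catalogue gives NONCODE as its origin. The sources used here do not say that its models were assembled from these libraries, nor how they were selected. With no counts, the planned comparisons of libraries were not fitted, and read depth is unknown.

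All exons on the mitochondrial chromosome were kept and placed against GENCODE M21 genes by strand. Sequence came from 15365 bases of GENCODE transcripts, which leave out 57 intergenic bases and the control region. A gene edge is the point between 2 bases where a gene starts or ends. Nuclear copies were searched with blastn (BLAST 2.17.0) in GENCODE transcripts in place of the nuclear genome that had been planned. Codons were read with Biopython 1.88 under Python 3.11.15, and figures drawn with matplotlib 3.10.9. The classification was run on simulated models built to fit its classes, which checks the code and not the choice of rule. Simulated antisense models were not made from mt-Nd5 or mt-Nd6, the genes under NONMMUT071600 and NONMMUT071601. All loci and models are named by rule. Members, lists and thresholds were chosen with earlier results of these data known. Alternatives changed the smallest overlap, the share counted as whole, the genes used, the unit, the distances and the copy limits, and 1 was added later.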

Additional observations from a re-analysis of the deposited data

How the results depend on the processing

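For 13 quantities, 59 values were computed under alternative settings, of which 55 stayed within 1.5 times the reported one and 4 did not. Some of the 55 could not move. Every model has 1 exon, so taking the whole span changes nothing, and the share counted as whole bears only on the whole-gene and fragment classes. Others did change, such as 3 whole-gene models in place of 2. The 55 is therefore not a measure of robustness. Taking the longest transcript of each locus left 1 whole-gene model in place of 2 and 0 fragments in place of 5, because fewer models remain. Requiring 95% identity left 2 nuclear genes with a copy in place of 4, and requiring 6 A in a row left 1 model with an A-rich 3′ end in place of 6. Counting tRNA genes moved NONMMUT071605 to the antisense class, giving 4 antisense and 2 outside models. No paired analysis was possible because the deposited annotation holds no value for a library. For the same reason no library could be left out, and the count normalizations and filters planned for library values were not run. Lack of control region sequence limited the composition measures to 11 models, and unread bases after mt-Te, where NONMMUT071601 ends, limited those of 3′ ends to 10. Identity of the mitochondrial sequence between builds was not tested on sequence.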

Other observations

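The transcript numbers of the 14 models run over a range of 36, of which 22 (61.1%) do not occur in the file. Over the whole file 45.5% of numbers in the range are absent. The longest absent run is 12 numbers, between NONMMUT071581, which ends in mt-Rnr2, and NONMMUT071594, which lies over mt-Nd3, and the stretch of the genome between their loci holds no catalogued model.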
